A study of Dichomitus squalens with 6 samples.

Results

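The genes described here are 51 gene models of the white-rot fungus Dichomitus squalens whose transcripts were lower on cellobiose than on both L-rhamnose and xylose. They were chosen from 15295 models by their measured levels. Of these models, 9894 have at least 2 exons, a coding length above 400 bases and whole read counts in all 6 libraries, and lie outside scaffolds 52, 68 and 77. Among the 9894, the mean level on L-rhamnose and on xylose, each as FPKM + 1, had to reach 10, to be at least 2 times the level on cellobiose, and to lie less than 2-fold apart. Both cellobiose libraries also had to lie below the other 4 libraries. FPKM is a fragment count divided by gene length and by library size, a level per length that can be set side by side between genes.

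The libraries come from mycelium of the wild-type monokaryon CBS 464.89, kept 5 days at 28 °C on plates with 1.5% agar. The medium was low in nitrogen, held asparagine and succinate, and received 25 mM L-rhamnose, 25 mM xylose or 25 mM cellobiose. Asparagine and succinate were thus present beside every sugar, and plates without one of these sugars were not analysed here. Each sugar has 2 replicate libraries of total RNA. The labels do not say whether these came from separate cultures, so the spread between them may be technical. At equal molarity, cellobiose, a disaccharide, brings more carbon than either monosaccharide, and this difference in carbon cannot be told apart from the kind of sugar.

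Cellobiose is the glucose disaccharide that cellobiohydrolases release from cellulose, and fungi split it to glucose with β-glucosidases or oxidise it with cellobiose dehydrogenase. L-rhamnose occurs in pectin. Xylose, the main sugar of xylan, is carried by fungi through reductase and dehydrogenase steps to the pentose phosphate pathway. In many filamentous fungi, sugars act on transcription both as inducers of the enzymes for a polymer and, where glucose is plentiful, through carbon catabolite repression. The deposited gene models carry positions and numbers but no product names. RefSeq's table for a different strain, with 12497 genes, matched 0 of the identifiers, so the function of the members is not given and they are described by place, structure and level. Positions are those of the deposited gene models, counted from 1. Only the pair with the greatest differences is given by identifier.

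The steps of the choice show how the 51 members relate to the other models. Of the 9894 models, 7002 reached the level on both monosaccharides, and these are called the models at level below. In 577 of the 7002, both cellobiose libraries lay below the 4 others, and in 58 of those the difference was at least 2-fold on both sugars. Of these 58, 7 were left out as 2-fold or more apart between the monosaccharides, 6 of them higher on L-rhamnose and 1 higher on xylose. The 51 members remain. For the opposite pattern, with cellobiose high and both monosaccharides low under the same limits, 100 models were found. Both ratios that chose the members are taken over the same cellobiose libraries and are not independent of each other.

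The members were not silent on cellobiose. Median levels of the members were 133.2 and 123.2 FPKM on L-rhamnose, 95.6 and 116.3 FPKM on xylose, and 43.8 and 42.8 FPKM on cellobiose. The models at level had medians of 38.7 and 37.8 FPKM on L-rhamnose, 38.9 and 38.7 FPKM on xylose, and 40.8 and 40.9 FPKM on cellobiose. On cellobiose the members therefore stood near the median of the other well expressed genes, and on the monosaccharides above it. Together they took 1.89% and 2.205% of all counts on L-rhamnose, 2.089% and 2.231% on xylose, and 0.72% and 0.642% on cellobiose. Totals per library ranged from 7306517 to 8126006 counts, and the lowest count of a member in any library was 12. In RNA from whole mycelium, fewer hyphae that express a gene and less RNA per hypha cannot be told apart.

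**Figure D1:**
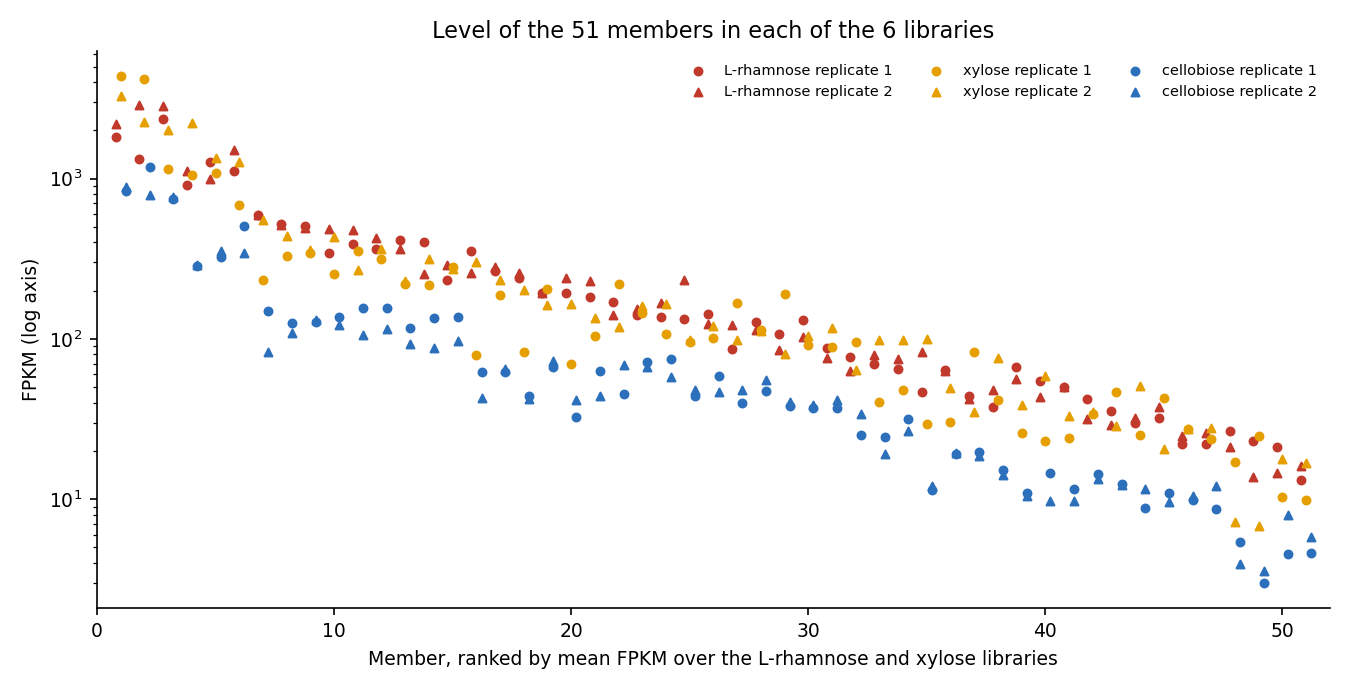
Level of each of the 51 members in the 6 libraries, in FPKM on a log axis, with members ranked by their mean over the L-rhamnose and xylose libraries. In every member both cellobiose points lie under the other 4, as the choice requires, while the distance between them and the nearest of the 4 varies.

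The differences were moderate and similar in most members. The ratio of mean FPKM + 1 over cellobiose ran from 2.05 to 5.7 for L-rhamnose, with a median of 3.04, and from 2.03 to 5.68 for xylose, with a median of 2.63. The smaller of a member's ratios, the one that kept it in, had a median of 2.41, and it was under 3 in 39 members and at least 3 in 12. The same smaller ratio had a median of 0.82 over the 7002 models at level. These values chose the members and are given as a description.

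**Figure D2:**
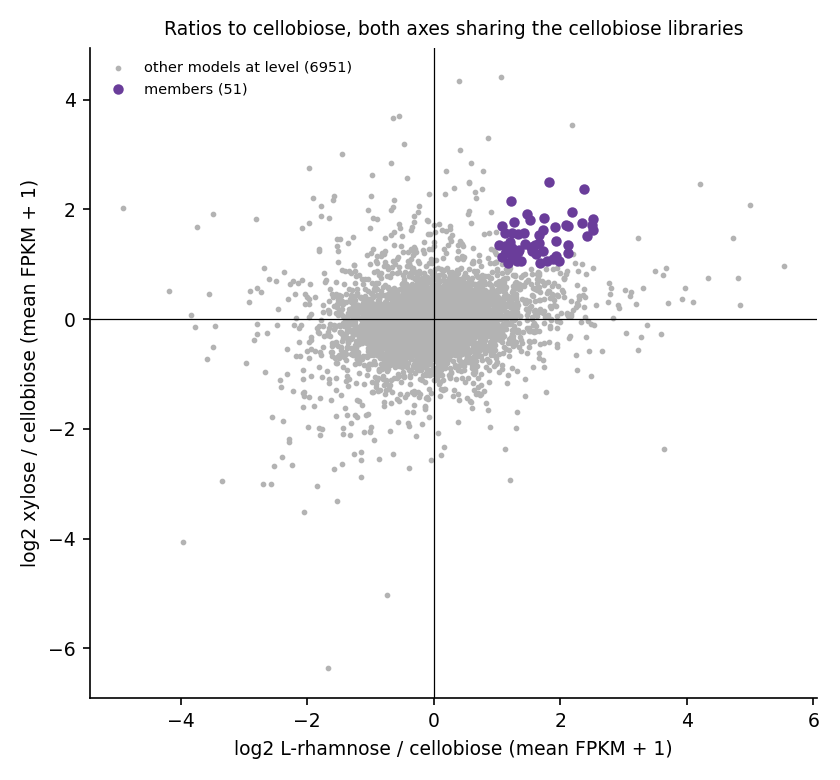
Log2 ratio of mean FPKM + 1 on L-rhamnose to cellobiose (horizontal) and on xylose to cellobiose (vertical) for the 51 members and the other models at level. The members fill a small block at the edge of the cloud, and both axes use the same cellobiose libraries.

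The greatest smaller ratio was that of gene_18214 (JGI protein 313068), which has 4 exons and 987 coding bases and spans 11673 to 13131 of scaffold 200, plus strand. It had 46.8 and 83.5 FPKM on L-rhamnose, 29.6 and 100.5 FPKM on xylose, and 11.4 and 12.2 FPKM on cellobiose. The cellobiose libraries were nearly equal, whereas the xylose libraries differed more than 3-fold, and the lower of them was the nearest to cellobiose. Its means were 65.1 ± 25.9 FPKM on L-rhamnose, 65.0 ± 50.2 on xylose and 11.8 ± 0.566 on cellobiose (SD, n = 2 each). The fitted log2 difference from cellobiose was 2.45 ± 0.57 on L-rhamnose and 2.58 ± 0.57 on xylose (SE, edgeR), with p of 0.0259 and 0.0571, Benjamini-Hochberg adjusted over all genes, so that on xylose it was not called at 0.05. DESeq2 called gene_18214 on xylose, at an adjusted p of 9.48e-05. The choice used these contrasts, so the p-values support nothing. Without any 1 L-rhamnose or cellobiose library, the adjusted p on L-rhamnose was 0.0852 to 0.135 in edgeR and the call was lost. Leaving out xylose replicate 1 or replicate 2 turned the difference on xylose into 3.2 or 1.46.

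Next was gene_17660 (JGI protein 833149), which has 5 exons and 513 coding bases and spans 35752 to 36479 of scaffold 189, plus strand. It is among the least abundant members, at 23.1 and 13.8 FPKM on L-rhamnose, 24.6 and 6.83 FPKM on xylose, and 3.02 and 3.58 FPKM on cellobiose. Its counts were 84 and 53 on L-rhamnose, 99 and 27 on xylose, and 12 and 14 on cellobiose. Here xylose replicate 1 was the high one, the opposite of gene_18214. The fitted log2 difference from cellobiose was 2.44 ± 0.65 on L-rhamnose and 2.37 ± 0.65 on xylose (SE, edgeR). The edgeR adjusted p was 0.0386 and 0.102, again not called on xylose, where DESeq2 called it at 0.00939. Without any 1 L-rhamnose or cellobiose library, the edgeR adjusted p on L-rhamnose was 0.104 to 0.182. Without xylose replicate 1 or replicate 2, the difference on xylose was 1.15 or 3.02. The span of this model overlaps the next model on the same strand by 233 bases, of which 0 are coding in both models. That next model had a log2 ratio of monosaccharides to cellobiose (mean FPKM + 1) of 1.566. The effect of the overlap on the counts was not tested.

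By level, 6 members averaged at least 1000 FPKM over the L-rhamnose and xylose libraries, 24 lay between 100 and 1000 FPKM, and 21 lay under 100 FPKM. The highest was a 7-exon model at 92771 to 95714 on scaffold 94, with 1503 coding bases. It had 1821 and 2206 FPKM on L-rhamnose, 4366 and 3294 FPKM on xylose, and 842 and 889 FPKM on cellobiose. All 3 sugars were set apart, xylose being the highest. Its ratio of L-rhamnose to xylose, 0.53, was the lowest among the members.

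A 2-exon model at 276139 to 277033 on scaffold 24 came next, with 831 coding bases. It had 1321 and 2866 FPKM on L-rhamnose, 4200 and 2264 FPKM on xylose, and 1190 and 795 FPKM on cellobiose. Replicates of L-rhamnose differed by over 2-fold in this member and in no other, and its lowest monosaccharide library was 1.11 times its highest cellobiose library, the narrowest gap of the 51. A 9-exon model at 231725 to 233151 on scaffold 33 had 2369 and 2855 FPKM on L-rhamnose, 1141 and 2020 FPKM on xylose, and 744 and 771 FPKM on cellobiose. In it L-rhamnose was highest in both libraries.

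The widest gap belonged to a 2-exon model at 35845 to 37181 on scaffold 141, with 975 coding bases. It had 910 and 1123 FPKM on L-rhamnose, 1055 and 2212 FPKM on xylose, and 285 and 289 FPKM on cellobiose, so its lowest monosaccharide library was 3.15 times its highest cellobiose library. A 6-exon model at 14922 to 16118 on scaffold 156 had 1279 and 991 FPKM on L-rhamnose, 1088 and 1345 FPKM on xylose, and 324 and 355 FPKM on cellobiose. L-rhamnose and xylose were interleaved in this model. Over all members the gap between the nearest libraries had a median of 1.81 and was at least 2 in 18 of 51.

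Members of middle level with large differences included an 18-exon model at 26983 to 29478 on scaffold 49. It had 351 and 257 FPKM on L-rhamnose, 79.8 and 300.6 FPKM on xylose, and 62.4 and 42.8 FPKM on cellobiose. Xylose replicate 1 was close to cellobiose in this gene and xylose replicate 2 close to L-rhamnose. A 13-exon model at 937086 to 938666 on scaffold 2 also had xylose replicate 2 close to L-rhamnose, with 596 and 590 FPKM on L-rhamnose, 233.0 and 554 FPKM on xylose, and 149 and 83.5 FPKM on cellobiose. A 5-exon model at 25754 to 27235 on scaffold 58 was lower in xylose replicate 1 than in the other monosaccharide libraries too, though clear of cellobiose, at 241 and 256 FPKM on L-rhamnose, 82.5 and 203 FPKM on xylose, and 43.8 and 42.3 FPKM on cellobiose.

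Other members were steady within each sugar. A 7-exon model at 21531 to 23722 on scaffold 193 had 267 and 279.8 FPKM on L-rhamnose, 188 and 234 FPKM on xylose, and 61.8 and 65.0 FPKM on cellobiose. A 5-exon model at 174886 to 177399 on scaffold 3 had 519 and 511 FPKM on L-rhamnose, 327 and 439 FPKM on xylose, and 126 and 109.6 FPKM on cellobiose. In both of these, L-rhamnose lay above xylose and xylose above cellobiose in every library. A 5-exon model at 105524 to 107036 on scaffold 5 showed the same order, at 509.9 and 490.2 FPKM on L-rhamnose, 342 and 359.6 FPKM on xylose, and 128 and 132 FPKM on cellobiose.

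The xylose replicates differed more in the members than in other genes. The larger xylose value was a median of 1.61 times the smaller one in the members and 1.17 times in the models at level. At least a 2-fold difference between the xylose libraries was found in 14 of 51 members (27.5%), 9 with replicate 2 higher and 5 with replicate 1 higher, and in 6.04% of the models at level. For L-rhamnose the medians were 1.21 in the members and 1.15 in the models at level, and for cellobiose 1.17 and 1.15. The lowest of the 4 monosaccharide libraries was xylose replicate 1 in 28 members, xylose replicate 2 in 10, L-rhamnose replicate 1 in 9 and L-rhamnose replicate 2 in 4. The choice used the mean of both xylose libraries, so these values are not independent of it, and the part of this spread in the choice was not tested. Without xylose replicate 1 the same conditions found 79 models, 46 of them members, and without xylose replicate 2 they found 36, of which 29 were members.

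Between the monosaccharides, members of either order occurred, and the split between them moved with the scaling. On the FPKM scale the mean was higher on L-rhamnose in 33 members and higher on xylose in 18, and the median ratio of L-rhamnose to xylose was 1.11. With counts scaled by TMM factors the split was 26 to 25, and the median log2 difference of all genes is 0.15 on FPKM and 0.161 on library size alone, against 0.013 with TMM. Both L-rhamnose libraries lay above both xylose libraries in 17 members on the FPKM scale and in 13 on the TMM scale, and below them in 3 and 6. Over all 12667 genes tested, 42.7% lay above and 27.8% below without overlap on the FPKM scale. The shares of all genes on the TMM scale are not given here, so the TMM counts have nothing to be set against. The choice kept members less than 2-fold apart, so nothing is read from these counts.

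A model was fitted to all genes with edgeR's quasi-likelihood test, and a gene was called at a Benjamini-Hochberg adjusted p under 0.05. The choice used the same contrasts, so the calls describe the members and do not support them. All 51 were tested. Against cellobiose, 48 members were called higher on L-rhamnose, where 11.0% of all genes were called higher, and 33 were called higher on xylose, where 1.66% were. In both comparisons, which share the cellobiose libraries, 32 members were called, against 0.553% of all genes. The median fitted log2 difference of the members was 1.6 on L-rhamnose, with single values from 1.03 to 2.52, and 1.55 on xylose, from 1.15 to 2.63, while that of all genes was -0.003 and 0.007. Standard errors of the members had a median of 0.28 and 0.29. Between L-rhamnose and xylose 4 members were called, 3 higher and 1 lower on L-rhamnose, against 31.5% of all genes.

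The numbers called depended on the libraries used, both in the members and among all genes. In both comparisons with cellobiose, fewer members and fewer of all genes were called when an L-rhamnose or cellobiose library was left out. In L-rhamnose minus cellobiose, the median fitted log2 difference of the members was 1.64 or 1.53 without L-rhamnose replicate 1 or 2. Without cellobiose replicate 1 or 2 it was 1.68 or 1.63, against 1.6 with all libraries. For xylose minus cellobiose, the median was 1.53 or 1.38 without xylose replicate 1 or 2. Without cellobiose replicate 1 or 2 it was 1.63 or 1.58, against 1.55 with all libraries. In L-rhamnose minus xylose, the median was 0.23 without xylose replicate 2, against 0.02 with all libraries. Without any other library it lay between -0.05 and 0.01.

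How far the pattern returned in libraries that did not choose the genes was read by applying the same limits to 1 library of each sugar and looking at the other 3. There are 8 such choices, which reuse the same 6 libraries. They found between 40 and 105 models each, of which 28 to 42 were members. In the held-out libraries, 23.5% to 50.0% of the models found were again at least 2-fold above cellobiose on both monosaccharides, against 0.828% to 1.92% of all models at level there. At a limit of 1.5-fold the shares were 42.9% to 77.5% of the models found and 2.45% to 5.66% of all models at level. Cellobiose was the lowest of the 3 held-out libraries in 67.6% to 90.6% of the models found and in 18.8% to 27.1% of all models at level. The median smaller ratio was 2.28 to 2.47 in the libraries that chose the genes and 1.3 to 2.0 in the held-out ones. So among the models found the direction mostly returned in the held-out libraries, and the size was smaller than in the libraries used for the choice. The members among these models had been chosen on all 6 libraries, so for them this is no independent test. Replicates may also come from the same culture, since the labels do not say. A return in the held-out libraries may then be only a repeat measurement, and a return in separate cultures was not tested.

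**Figure D3:**
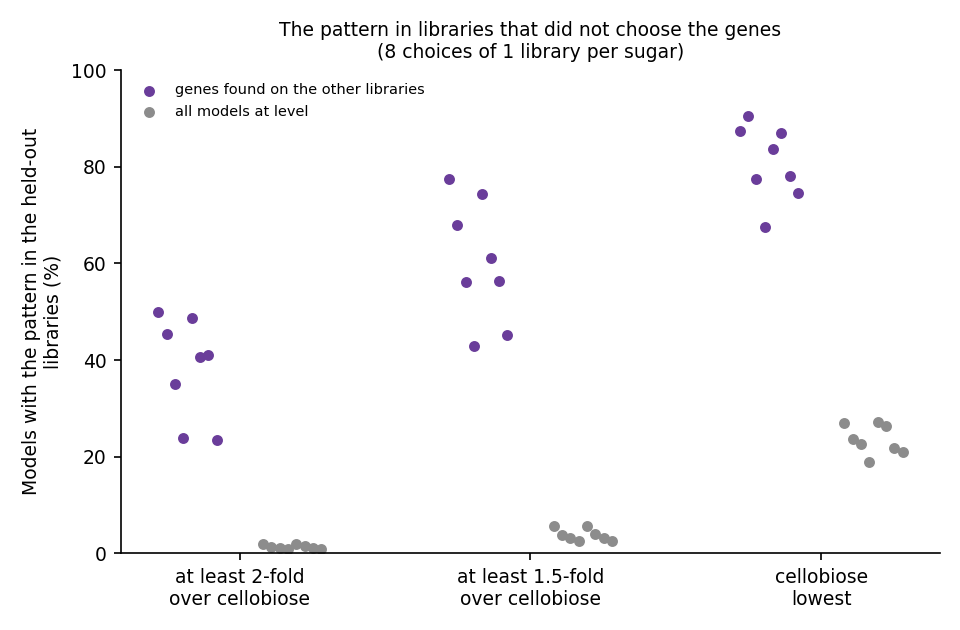
Share of models with the pattern in the 3 held-out libraries, in percent, for each of the 8 choices of 1 library per sugar. Purple points are models found on the other 3 libraries and grey points are all models at level in the held-out ones. For the 2-fold limit the purple points lie between 23.5% and 50.0% and the grey points between 0.828% and 1.92%.

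Values near the limits show how close some members are to other genes. Nearest inside the 2-fold limit was a 7-exon model at 43556 to 45863 on scaffold 97, at 63.6 and 63.3 FPKM on L-rhamnose, 30.4 and 49.5 FPKM on xylose, and 19.0 and 19.4 FPKM on cellobiose, with a ratio of 2.026 on xylose. Nearest outside was a 5-exon model at 925460 to 927534 on scaffold 2, at 670.2 and 746 FPKM on L-rhamnose, 947 and 1188 FPKM on xylose, and 322 and 391 FPKM on cellobiose, with a ratio of 1.985 on L-rhamnose. For the limit on the distance between monosaccharides, the member nearest inside was the scaffold 94 model, at 1.902-fold, and the nearest outside was a 7-exon model at 748503 to 750165 on scaffold 3, at 2.019-fold. It had 122.3 and 98.3 FPKM on L-rhamnose, 46.7 and 61.6 FPKM on xylose, and 26.7 and 19.8 FPKM on cellobiose.

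For the level, the member nearest inside was a 9-exon model at 55928 to 58124 on scaffold 49, at 26.5 and 21.2 FPKM on L-rhamnose, 17.2 and 7.2 FPKM on xylose, and 5.43 and 3.96 FPKM on cellobiose. Its second xylose library was only slightly above cellobiose. The nearest outside was a 3-exon model at 82063 to 83214 on scaffold 59, at 6.1 and 4.52 FPKM on L-rhamnose, 9.47 and 3.78 FPKM on xylose, and 2.31 and 1.72 FPKM on cellobiose. A further 2 models met every limit except that a cellobiose library reached into the others. The closer was a 6-exon model at 51507 to 54379 on scaffold 69, at 18.1 and 19.3 FPKM on L-rhamnose, 28.2 and 7.31 FPKM on xylose, and 7.44 and 9.23 FPKM on cellobiose.

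Without the conditions on gene structure, 69 models met the limits on values. The 18 left out were 9 with a coding length of 400 bases or less, 7 with counts that were not whole, 3 with 1 exon and 1 on an excluded scaffold, 2 of them failing more than 1 condition. Counts that are not whole mark reads divided among genes by the estimation, so the levels of those 7 are uncertain.

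The members are spliced genes of usual size. They had a median of 7 exons, from 2 to 18, against 6 in the models at level. Up to 3 exons were found in 6 members (11.8%) and in 21.9% of the models at level, and 10 or more in 15 members (29.4%) and in 20.4%. Median coding length was 1143 bases in the members, from 408 to 7281, and 1260 in the models at level. The longest was a 14-exon model at 217944 to 227490 on scaffold 23, which had 29.9 and 32.1 FPKM on L-rhamnose, 25.3 and 50.7 FPKM on xylose, and 8.78 and 11.6 FPKM on cellobiose. The shortest was a 4-exon model at 1990234 to 1991108 on scaffold 1, with 22.2 and 26.0 FPKM on L-rhamnose, 23.6 and 27.9 FPKM on xylose, and 8.72 and 12.1 FPKM on cellobiose.

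Introns were short in both sets, with a median of the per-gene median of 60 bases in the members and 59 in the models at level. In 3 members the median intron was over 100 bases, the longest being the single intron of 1478 bases in a 2-exon model at 139557 to 142104 on scaffold 2. An annotated UTR was present in 39 members (76.5%) and in 71.5% of the models at level. Where present, the 5′ UTR had a median of 164 bases in the members and 121 in the models at level, and the 3′ UTR 174 and 185 bases. The rule asked for at least 2 exons and more than 400 bases, so the low ends of exon number and length were fixed by it. No test was made of these differences, which are descriptions.

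**Figure D4:**
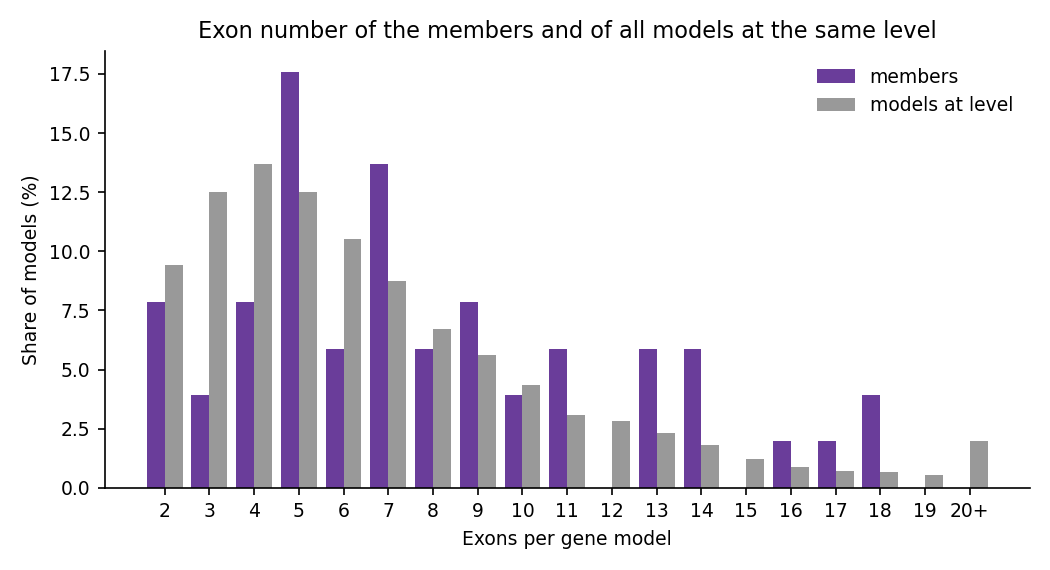
Share of models with each number of exons, in percent, for the 51 members (left bar of each pair) and the 7002 models at level (right bar), with 20 or more exons pooled. Members have fewer models of up to 3 exons (11.8%) than the models at level (21.9%).

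The members lay on 36 scaffolds, with 26 scaffolds holding 1 member, 5 holding 2 and 5 holding 3, and 26 members were on the plus strand and 25 on the minus strand. On scaffolds shorter than 150000 bases lay 19 members (37.3%) and 23.0% of the models at level. Scaffolds 1, 4, 5, 49 and 92 held 3 members each. On scaffold 1 these were 3 among 668 models at level, on scaffold 49 they were 3 among 33, and on scaffold 92 they were 3 among 28.

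Only 1 pair of members were direct neighbours. On scaffold 92, a 2-exon model at 82725 to 84612 on the minus strand and a 17-exon model at 84814 to 87157 on the plus strand stand head to head, with 201 bases between their annotated ends. The 2-exon model had 13.1 and 16.03 FPKM on L-rhamnose, 9.89 and 16.9 FPKM on xylose, and 4.61 and 5.77 FPKM on cellobiose. The 17-exon model had 21.1 and 14.6 FPKM on L-rhamnose, 10.3 and 17.8 FPKM on xylose, and 4.53 and 8.0 FPKM on cellobiose. Both are among the 4 least abundant members, and their levels were of like size.

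On the other side of the 2-exon model lies a 4-exon model at 82032 to 82517 on the minus strand, whose coding length of 294 bases kept it out. It was far more abundant, with 2140 and 2088 FPKM on L-rhamnose, 1908 and 3307 FPKM on xylose, and 674 and 594 FPKM on cellobiose. This model met every limit on values, at ratios of 3.33 on L-rhamnose and 4.11 on xylose, so 3 models in a row had the pattern. It was singled out after its values were seen. The models just beyond these did not have it, one at 53.7 and 51.8 FPKM on L-rhamnose, 200.7 and 47.4 FPKM on xylose, and 104 and 66.6 FPKM on cellobiose, the other with no more than 0.63 FPKM in any library.

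Similar small groups, also singled out after their values were seen, lay on scaffolds 181 and 3. The 7-exon member at 24886 to 26795 on scaffold 181 had 44.2 and 42.2 FPKM on L-rhamnose, 83.0 and 35.2 FPKM on xylose, and 19.7 and 18.7 FPKM on cellobiose. Beside it, the 4-exon model at 22790 to 24758 had 131 and 144 FPKM on L-rhamnose, 147 and 181 FPKM on xylose, and 79.9 and 59.2 FPKM on cellobiose, just short of the limit at a ratio of 1.96 on L-rhamnose. The next, a 17-exon model at 19127 to 21803 whose counts were not whole, had 152 and 121 FPKM on L-rhamnose, 73.8 and 92.3 FPKM on xylose, and 40.2 and 28.5 FPKM on cellobiose. These 3 neighbours were thus all lower on cellobiose.

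On scaffold 3, the abundant 7-exon member at 147216 to 148935 had 1121 and 1510 FPKM on L-rhamnose, 682 and 1267 FPKM on xylose, and 508 and 345 FPKM on cellobiose. The 8-exon model next to it on the same strand, at 144750 to 146965, had 324 and 565 FPKM on L-rhamnose, 271 and 187 FPKM on xylose, and 116 and 71.6 FPKM on cellobiose. It met the limits on values too, but its counts were not whole and its level is uncertain.

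Over all members, the models directly beside them gave 59 further models that reached the level of 10 on both monosaccharides, whatever their structure. In 12 of these (20.3%) both cellobiose libraries lay below the 4 others, against 674 of all 8625 non-members of that level (7.81%), and their median log2 ratio of monosaccharides to cellobiose was 0.12, against -0.04. Of the neighbours that also met the conditions on structure, 8 of 48 (16.7%) had both cellobiose libraries lowest, against 526 of 6951 non-members (7.57%), with medians of 0.04 and -0.06. At least 2-fold on both sugars were 2 of the 59 neighbours, and 0 of the 48 that met the conditions on structure. At 2 models' distance, whatever the structure, 2 of 29 and 1 of 37 models of that level had cellobiose lowest. The counts at 3 models' distance were 1 of 22 and 0 of 32. No test of these shares was made. The neighbours directly beside members with both cellobiose libraries lowest include models on scaffolds 1 and 5 whose spans overlap that member, by 515 and 185 bases. Spans of 12 members (23.5%) overlapped a neighbouring model, as did 23.3% of the models at level, and in 0 of the 12 did coding parts overlap. Whether counting used strand is not given in the sources used here.

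**Figure D5:**
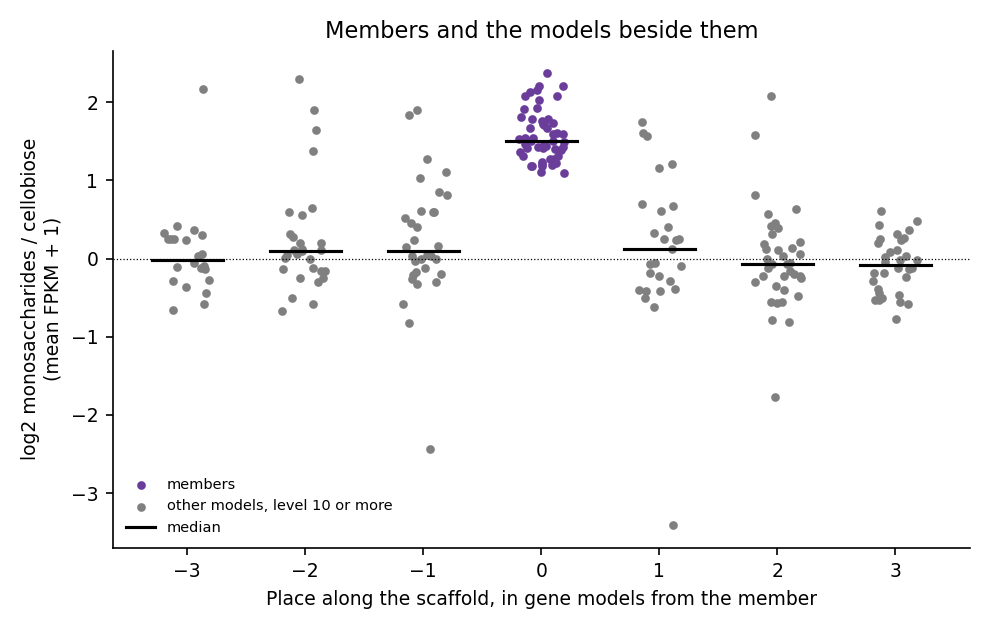
Log2 ratio of the mean of the L-rhamnose and xylose libraries to the mean of the cellobiose libraries (FPKM + 1) for the 51 members at place 0 and for other models, of any structure, that reached 10 on both monosaccharides, up to 3 models to either side, with medians as bars. The medians are 0.1 and 0.12 at the models directly beside the members, 0.1 and -0.07 at 2 models' distance, and -0.02 and -0.08 at 3.

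Among the 6 libraries, the median member profile, as log2(FPKM + 1) minus each gene's mean, stood at 0.53 and 0.59 on L-rhamnose, 0.27 and 0.47 on xylose, and -0.95 and -1.08 on cellobiose. Single members correlated with this profile with Pearson's r from 0.719 to 0.995 over the 6 libraries, with a median of 0.931, and r was under 0.9 in 13. The profile was made from these members, so this describes how they vary and is no test. Of the models outside the set, the most alike was a 4-exon model at 220797 to 222383 on scaffold 6 (r = 0.99), with 40.7 and 39.8 FPKM on L-rhamnose, 38.2 and 39.6 FPKM on xylose, and 31.6 and 29.3 FPKM on cellobiose. Next came a 5-exon model at 254564 to 256593 on scaffold 11 (r = 0.989), with ratios over cellobiose of 1.465 on L-rhamnose and 1.397 on xylose. The 14-exon model at 77239 to 80636 on scaffold 35 (r = 0.986) had ratios of 2.107 on L-rhamnose and 1.797 on xylose, with 40.5 and 36.5 FPKM on L-rhamnose, 31.7 and 33.7 FPKM on xylose, and 17.6 and 17.9 FPKM on cellobiose.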

How the data were processed

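The deposited tables give, per library and gene, a coding length, an expected count and an FPKM value. The expected count is the authors' estimate of reads per gene, and FPKM was scaled by the authors to length and library size. Per the submitters' processing notes, RSEM, Bowtie2 and HISAT were used. The tool versions, genome build and strandedness were not given in the sources used here. A gene absent from a table was taken as 0. Positions follow the deposited gene models. A count was whole when within 1e-06 of an integer.

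The members, lists and tests were chosen with earlier results of these data known. Expected counts were rounded and 12667 genes that passed filterByExpr were fitted with edgeR 4.0.16 in R 4.3.3 (TMM scaling, glmQLFit and glmQLFTest). The fit held all 6 libraries, no covariate and 3 residual degrees of freedom. The script was tested on simulated data with 200 changed genes. The standard error of a log2 difference is its size over the root of its F statistic. The 2 identifiers printed are the members with the greatest smaller ratio over cellobiose. Members of the greatest ratios and levels, neighbours, extremes of exon number and length, models at the limits and the 3 most alike profiles are given by position. DESeq2 1.42.0 and limma 3.58.1, other scalings and filters, a replicate block and leaving out each library were alternatives.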

Additional observations from a re-analysis of the deposited data

How the results depend on the processing

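With 2 libraries per sugar, the counts of called members moved most with the libraries used. Leaving out each library in turn gave 7 to 50 members called higher on L-rhamnose than on cellobiose, 1 to 46 higher on xylose than on cellobiose, and 0 to 13 called between L-rhamnose and xylose (the sugar left with 1 library then borrows its spread from the others). The number of all genes called also changed in these fits, so nothing particular to the members is read from the ranges. With each library left out in turn, the conditions on values found 36 to 79 models. Higher on xylose than on cellobiose, 33 of 51 members were called in edgeR on all libraries, 51 in DESeq2 and 13 in an edgeR fit of only those sugars. Of all genes, 1.66%, 3.7% and 0.491% were called higher there. Between L-rhamnose and xylose, 4 members became 0 in edgeR fits of only those sugars and with the replicate block. In those fits 6 and 7 had an unadjusted p under 0.05. DESeq2 and limma called 4 each on all libraries without a block. Of all genes, 31.5% were called between these sugars in edgeR on all libraries, 26.9% with only those sugars and 22.5% with the block. DESeq2 and limma called 28.7% to 29.5% of them. The cause of these shifts was not tested.

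Replicate numbers were not taken to pair the libraries: deviations of same-numbered libraries correlated at -0.2 between cellobiose and L-rhamnose, -0.124 between cellobiose and xylose and -0.0868 between L-rhamnose and xylose. The replicate block called 44 members on L-rhamnose and 24 on xylose against cellobiose, where 6.75% and 1.12% of all genes were called higher. A limit of 1.5-fold in place of 2 gave 139 models, and 3-fold gave 12. The median share that returned in the held-out libraries was 40.9% at 2-fold and 58.8% at 1.5-fold. TMM-scaled levels gave 57 models, 50 of them members. The pair of neighbouring members stayed 1 within 3 models. The lowest count behind a member's ratio was 12, in a cellobiose library.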
